A study of Mus musculus with 12 samples.

Results

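The genes along mouse chromosome 4 were followed, in their order on the chromosome, through 6 liver tumours and 6 normal livers. A gene was included if a probe set naming it alone lay on chromosome 4 by gene ID (build GRCm38) and if the mean level of its brightest probe set over the 12 arrays exceeded 6.76, the median of all probe sets. This gave 687 of the 18193 genes measured on the arrays. Another 400 of the 1087 chromosome 4 genes measured were not above that level. Slc1a7, Cnr1 and Tmod1 lay just inside it, each at 6.76, and Klf17, Cdk5rap2 and 9930104L06Rik just outside, at 6.76, 6.75 and 6.74. One included gene, Cd99, sits on a stretch of sequence whose place along the chromosome is not set, so 686 genes were put in order. The tumours were hepatocellular carcinomas (HCC), cancers of the liver's parenchymal cell, that had arisen without treatment. Tumours and control livers came from untreated B6C3F1 mice at 2 years of age in a long-term bioassay; B6C3F1 is a hybrid bred from C57BL/6 mothers and C3H fathers. Each group held 6 samples, 1 single-colour Affymetrix array per sample, and the labels do not say whether any tumours shared an animal, so p-values measure the spread between these samples. All levels are quantile-normalized log2(intensity + 16), and every difference is on that scale, which understates the change of dim genes.

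RNA levels of neighbouring genes can move together when the dose of a chromosome segment changes, when chromatin of a region opens or closes, or when neighbours serve the same cell type. An expression array measures the RNA alone. Mouse chromosome 4 carries the Cdkn2a and Cdkn2b cell cycle inhibitors, the gene clusters of the major urinary proteins and of the Cyp4a and Cyp2j monooxygenases, and many enzymes that the hepatocyte uses for lipids, bile acids and heme. Because mouse chromosomes have their centromere at one end, positions are counted from the centromere.

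Promoter sequences are shown for genes of the long stretch described below, to show how unlike they were in base composition among genes that were about equally low in HCC 4. The motif searched was CG, which reads the same on both strands and is printed in capitals. Of the genes before the border in HCC 4, the choice was among 19 whose difference in that tumour lay within 0.1 of the median, whose start was the outer end of the gene, and for which RefSeq sequence was at hand. The genes with the fewest and the most CG in the 250 bases before the start were taken. The 150 bases immediately before the start are printed 5′ to 3′ on the strand of the gene (RefSeq, GRCm38.p6).
Acnat2: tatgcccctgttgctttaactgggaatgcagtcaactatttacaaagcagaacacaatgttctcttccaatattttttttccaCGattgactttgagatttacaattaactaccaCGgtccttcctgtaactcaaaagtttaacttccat
D630039A03Rik: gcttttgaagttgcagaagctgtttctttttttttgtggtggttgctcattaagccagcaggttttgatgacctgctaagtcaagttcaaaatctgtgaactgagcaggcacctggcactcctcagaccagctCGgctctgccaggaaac
Prkaa2: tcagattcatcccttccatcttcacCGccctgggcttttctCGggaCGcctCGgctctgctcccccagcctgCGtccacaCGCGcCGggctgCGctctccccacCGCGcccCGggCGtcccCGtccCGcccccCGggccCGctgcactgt
Casp8ap2: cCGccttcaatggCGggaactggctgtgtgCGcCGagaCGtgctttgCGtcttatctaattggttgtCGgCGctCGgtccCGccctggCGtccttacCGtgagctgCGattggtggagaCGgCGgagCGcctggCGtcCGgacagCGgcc
Acnat2, an acyltransferase that joins fatty acids to amino acids (chr4:49408152-49408301, minus strand), had 3 CG in the 250 bases. D630039A03Rik (chr4:57916265-57916414, minus strand) also had 3. Prkaa2, a catalytic subunit of the AMP-activated protein kinase (chr4:105109899-105110048, minus strand), had 24, and Casp8ap2, a factor in histone RNA processing (chr4:32615320-32615469, plus strand), had 25.

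Their levels in HCC 4 lay below the normal mean by similar amounts, which is how they were chosen. Acnat2 was at 10.54 in HCC 4 against 11.14 ± 0.37 in normal liver, D630039A03Rik at 8.85 against 9.60 ± 0.35, Prkaa2 at 10.81 against 11.40 ± 0.39, and Casp8ap2 at 8.0 against 8.76 ± 0.25 (SD, n = 6). The differences were -0.60, -0.75, -0.59 and -0.76. In HCC 6 the same genes differed from normal by -2.39, -0.56, -1.77 and -0.18, so they were not equally low there. CG was found in the 250 bases before the start of 99.5% of the 569 included genes with RefSeq sequence, with a median of 15 CG. In the whole RefSeq table of 27025 genes it was found in 91.7%, with a median of 6. That table was not filtered by brightness or by presence on the arrays. The sets are therefore not alike, and these values do not set chromosome 4 apart.

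With 6 arrays in each group the precision of every value is limited. Hepatocyte markers were present in both groups (8 of 10 listed were measured; their summed intensity ran from 319415 to 343595 in normal livers and from 265388 to 314625 in HCC), and 3 of them fell, Tat, Fah and Hpd. In HCC 6 the 10 markers of stellate cells and fibroblasts were 2.86 above normal on average, with a summed intensity of 90253 against 9805 to 22049 in the other HCC and 10376 to 15600 in normal livers. Normal 1, normal 3, HCC 1 and HCC 4 had no signal of Y-linked genes (mean level from 4.17 to 4.85 against 8.96 to 9.77 in the other 8), and the labels give no sex.

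Chromosome 4 genes were more often lower than higher in HCC. limma called 95 of the 687 genes lower and 29 higher at a Benjamini-Hochberg adjusted p under 0.05 over all genes, which is 13.8% and 4.22%. Over all 18193 genes the shares were 7.24% lower and 6.48% higher. Over the 11379 genes of all chromosomes above the same brightness limit they were 10.2% and 8.92%, and over the 10692 of the other chromosomes 9.93% and 9.22%. Genes called equally bright here and below passed that same lower limit and were not matched further in level. The median difference was -0.17 on chromosome 4 and -0.03 on the other chromosomes. In 59 genes all 6 HCC lay below all 6 normal livers and in 19 all lay above, which is to be read against 4.5% and 4.25% of all genes and 6.72% and 6.57% of equally bright genes elsewhere. The other 563 genes did not pass the test. With the 8 arrays that had Y-linked signal the counts were 35 lower and 19 higher, and with the deposited scaling, which adds no quantile step, 82 and 44. The shares over all genes under these settings are not given, so these counts do not show whether chromosome 4 was set apart there.

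The falls were spread unevenly between tumours. For each HCC the difference of every gene from the normal mean was taken, and a running median over 25 neighbouring genes was drawn along the chromosome. A falling stretch is an unbroken run of genes whose running median is at or below -0.3. These values chose the stretches, so they are a description with no test. The 6 normal livers, each set against the other 5 in the same way, reached lowest running medians from -0.12 to -0.23 on chromosome 4 and had 0 falling stretches. All 6 HCC had at least 1, but their extent differed greatly. Such stretches were not particular to chromosome 4. On chromosome 12 the longest held 21 genes in HCC 2 and 23 in HCC 5, more than on chromosome 4 in these tumours. Normal livers had stretches of at most 2 genes on chromosomes 7, 15 and 19.

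**Figure D1:**
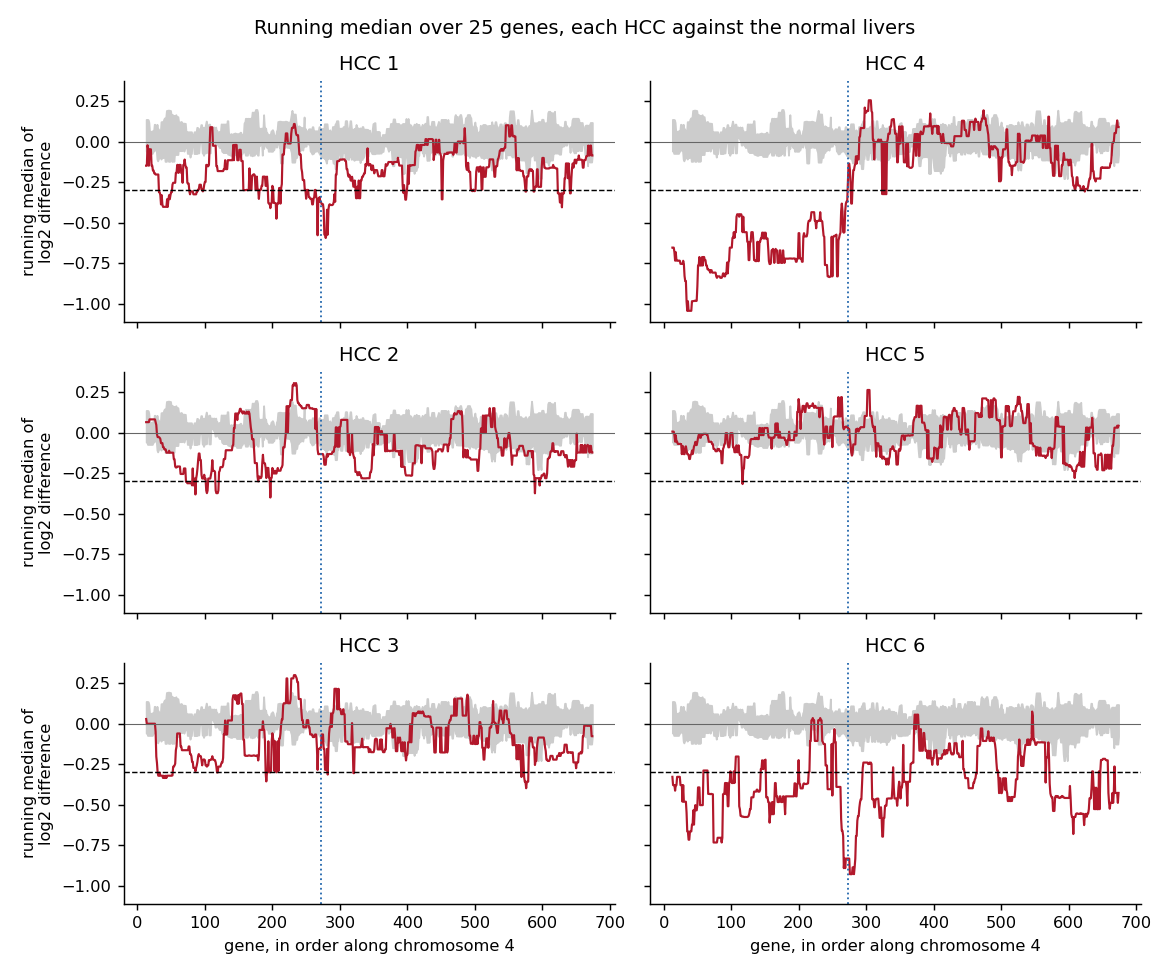
Running median of the log2 difference from the normal mean over 25 genes (y axis) against the order of 686 genes along chromosome 4 (x axis), 1 panel per HCC (red). The grey band spans the 6 normal livers, each against the other 5, the dashed line is -0.3, and the dotted line is the border found in HCC 4; in HCC 4 the line stays under the dashed line for 260 genes and then returns to the grey band.

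HCC 4 carried the longest stretch. It began at the first window that could be centred and ran unbroken over 260 genes, from Car8, a relative of the carbonic anhydrases, to Prkaa2 (chr4:8141493-105109898). Within it 221 genes lay below the normal mean and 185 below all 6 normal livers, with a median difference of -0.72. The running median was lowest, at -1.04, in the window centred on Osgin2. Osgin2 itself was at -0.19 in HCC 4, which shows that the window and not each gene was low. On the other 19 chromosomes of HCC 4 the longest stretch held 35 genes (chromosome 19) and the lowest running median was -0.68.

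A single break described HCC 4 better than any other tumour. When the chromosome was split once, at the gene boundary that left the smallest sum of absolute deviations from the median of each side, the border in HCC 4 fell between Prkaa2 and Plpp3, a lipid phosphate phosphatase (chr4:105109898-105157347). The 272 genes before it had a median difference of -0.69, with quartiles of -1.05 and -0.26. The 414 genes after it had a median of -0.02, with quartiles of -0.40 and 0.30. Before the border 226 genes (83.1%) were under the normal mean and 188 (69.1%) under all 6 normal livers. After it the shares were 51.9% and 28.7%, and on the other chromosomes of HCC 4 29.5% of genes lay under all normal livers. The split lowered the sum of deviations by 11.2% in HCC 4 and by at most 0.72% in the other 5 HCC.

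The place of the border is known only roughly. Splits that gave at least 95% of the best reduction lay anywhere after the genes from Pgm1 to Scp2 (chr4:99987294-108144971). Against the mean of the other 5 HCC in place of the normal livers, the border in HCC 4 lay between Leprot and Lepr (chr4:101659364-101717137), with medians of -0.54 before and 0.12 after and a reduction of 20.5%. With the border kept between Prkaa2 and Plpp3, that reference gave -0.53 before and 0.12 after. Without the genes that limma called in HCC against normal liver, the medians on its sides were -0.58 and 0.03, and against normal 1 and normal 3 alone, which like HCC 4 had no Y-linked signal, -0.67 and -0.01. The border was chosen from these same values, so no test is given for it and its lower side is fixed by that choice.

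Genes around the border showed how gradual the picture was gene by gene. Before it in HCC 4, the protein kinase Jak1 was at -0.37 and adenylate kinase 4 (Ak4) at -2.92, while Leprot was at 0.03, the leptin receptor Lepr at 3.80 and the phosphodiesterase Pde4b at 1.44. Nearer to it came the nucleotide sugar transporter Slc35d1 at -0.90, the adaptor Dab1 at -1.76, and the complement chains C8b at -1.16 and C8a at -0.61. After it, Plpp3 was at 0.13, Pars2 at -0.02, Ttc4 at -0.09 and Mrpl37 at 0.03, while the deiodinase Dio1 was at -2.29, the thioesterase Acot11 at -1.58, Ssbp3 at -1.22, Fam151a at -0.56 and the ubiquitin protease Usp24 at -0.26. These 5 of the first 12 genes after the border lay below all normal livers in HCC 4, as did 5 of the last 12 before it. Acot11 was between -0.96 and -1.85 in the other 5 HCC, Ssbp3 between -0.31 and -1.23, and Dio1 between -0.66 and -3.19, so their low values were shared by the tumours. Fam151a and Usp24 were not low in every tumour, at 0.32 and 0.02 in HCC 2. Some genes before the border were low in the other tumours too. Prkaa2, at -0.59 in HCC 4, was between -0.78 and -1.77 in the other 5 HCC, and Slc35d1 between -0.07 and -1.53. Jak1 went the other way, between 0.27 and 0.51 in those 5. Dab1 differed by tumour. It was at 0.52, 2.95, 2.38, 3.75 and 1.14 in HCC 1, 2, 3, 5 and 6.

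**Figure D2:**
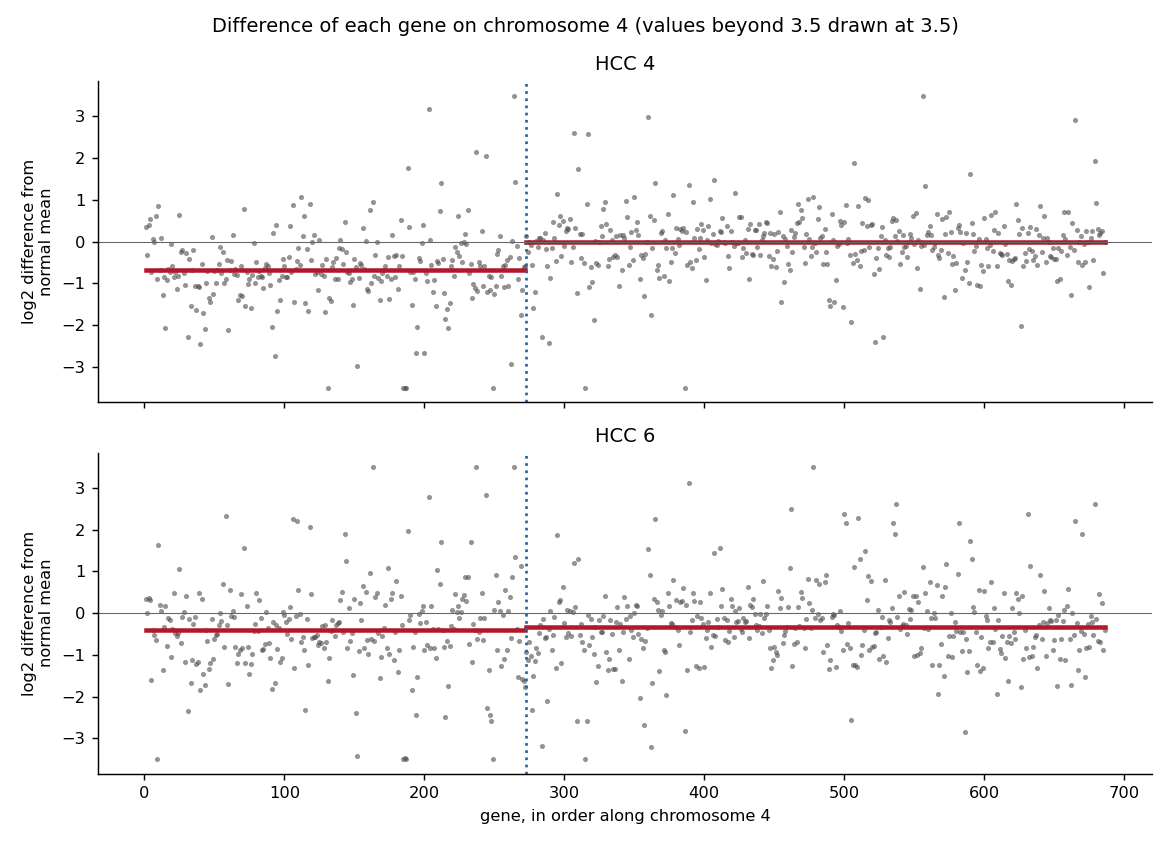
Log2 difference of each of 686 genes from the normal mean (y axis; values beyond 3.5 are drawn at 3.5) against gene order along chromosome 4 (x axis) in HCC 4 and HCC 6. Red lines are the medians before and after the HCC 4 border (dotted): they step from -0.69 to -0.02 in HCC 4 and are nearly level, at -0.40 and -0.33, in HCC 6.

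Some probe sets on the same arrays did not enter the choice of the border. They measure the same RNA samples, and many of them the same genes, so they are not an independent test of it. The 209 other probe sets of the same genes before the border that were above the median probe set had a median difference of -0.58, and the 290 after it 0.03. Genes not above the median probe set were at -0.26 before (175 genes) and -0.11 after (224 genes). In the other HCC such dim genes ran from -0.21 (HCC 6) to -0.05 (HCC 1) before and from -0.19 (HCC 2) to -0.06 (HCC 1) after. They set HCC 4 little apart. The other probe sets of HCC 6 were at -0.44 before and -0.31 after. HCC 1, the other tumour without Y-linked signal, had medians over the members of -0.22 before and -0.15 after. Hepatocyte markers had an average difference of -0.54 in HCC 4, against -0.71 (HCC 1) and -0.51 (HCC 6), and Kupffer cell and endothelial markers (10 of each) differed in HCC 4 by -0.76 and -0.42, against ranges over normal livers from -0.90 to 0.52 and from -0.59 to 0.45. The 10 stellate cell and fibroblast markers of HCC 4 averaged 0.03, but moved far in both directions: Lrat was at 5.74 against a normal mean of 9.47 and Dcn at 9.32 against 12.44, while Col1a1 was at 9.29 against 5.97 and Reln at 13.81 against 11.54. Single Kupffer cell and endothelial markers also moved in both directions in HCC 4. Clec4f was at 6.23 against a normal mean of 10.59 and Vsig4 at 8.10 against 11.07, while Cd68 was at 10.27 against 8.53. Clec4g was at 8.34 against 11.66, while Pecam1 was at 9.62 against 7.63. The part of any of these cell types in the values of HCC 4 was not tested.

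Divided into parts of 20 Mb, the chromosome was low in HCC 4 in each of the 5 parts that precede 100 Mb and nearer to normal in the later ones. Its medians in order were -0.69, -0.78, -0.69, -0.72, -0.58, -0.12, 0.03 and -0.15. The normal livers stayed between -0.08 and 0.15 in every one of these. In the part from 80 to 100 Mb (42 genes, from Lurap1l to Pgm1) HCC 4 stood alone. The other 5 HCC had medians of -0.08, 0.16, 0.12, 0.08 and -0.12 there. That part holds Cdkn2a, Cdkn2b, Jun and the Cyp2j cluster.

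HCC 6 was low along most of the chromosome rather than on one side of a border. Its median over the 686 genes was -0.36, against -0.06 over all its other chromosomes. On chromosome 4 it had 21 falling stretches that together held 415 of the 662 window centres (62.7%), the longest of 63 genes from Atp13a2 to Dnajc11 (chr4:140986216-151981959). Falls were also common elsewhere in HCC 6. On chromosome 13 the median was -0.25 and 38.8% of window centres lay in falling stretches, and on chromosomes 8 and 9 30.4% and 29.3% did. The lowest running median of HCC 6 on chromosome 4, -0.93, was in the window centred on Ttc4, close to the border of HCC 4. In HCC 6, 34.8% of genes of the other chromosomes lay under all normal livers, and 50.3% of those of chromosome 4 did. The high level of stellate cell and fibroblast markers in that tumour was given above, and its part in these values was not tested.

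The other tumours had shorter stretches. In HCC 1 the longest held 29 genes from Pde4b to Zyg11b (chr4:102087332-108301125), with a lowest running median of -0.59. In HCC 3 it held 23 genes, from Pip4p2 to Epha7 (chr4:14864219-28967503), and in HCC 2 10 genes, from Aco1 to Bag1 (chr4:40143265-40948294). HCC 5 had 1 window, centred on Reck. Chromosome medians for HCC 1, 2, 3 and 5 were -0.17, -0.11, -0.09 and -0.02. The genes that lay under all 6 normal livers numbered 265, 223, 234 and 180 (38.6%, 32.5%, 34.1% and 26.2%). On the other chromosomes of these tumours the shares were 28.2%, 24.7%, 29.2% and 28.5%.

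Compared with the other chromosomes of the same tumour, chromosome 4 held the lowest running median in HCC 1, HCC 4 and HCC 6. In HCC 4 it was -1.04 against -0.68 on the next, and in HCC 6 -0.93 against -0.67 (chromosome 9). In HCC 1 it barely differed from chromosome 19 (both -0.59). In HCC 2, 3 and 5 it ranked 2, 9 and 14 of 20 from the lowest. Longest stretches elsewhere held 52 genes in HCC 6 and 29 in HCC 1. Chromosome 4 was therefore not set apart in HCC 1 by the length of its stretches.

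**Figure D3:**
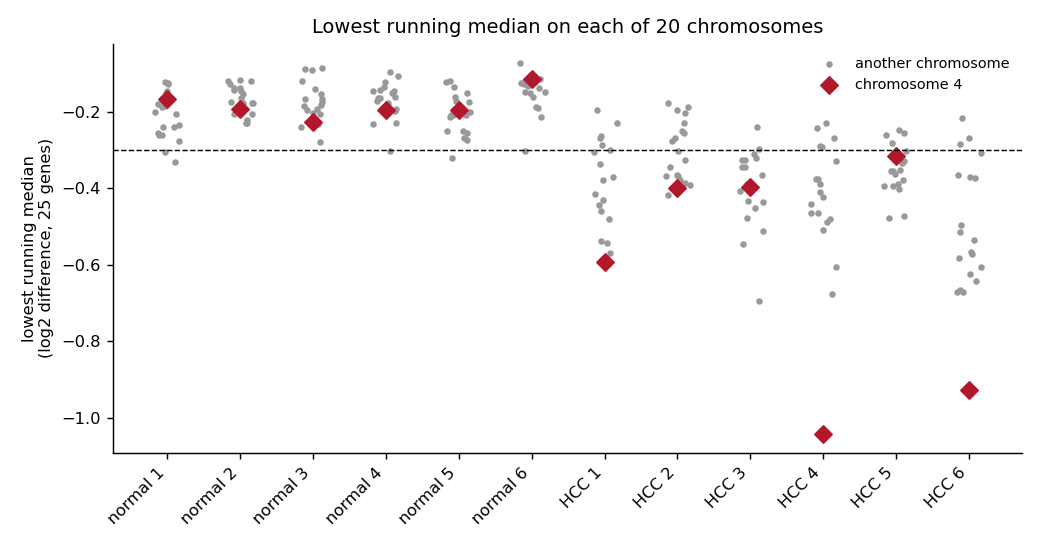
Lowest running median (y axis, log2 difference over 25 genes) on each of 20 chromosomes in every array (x axis). Red diamonds are chromosome 4 and grey points the other chromosomes; chromosome 4 lies clearly under the grey points in HCC 4 and HCC 6, and within them in HCC 2, 3 and 5 and in the normal livers.

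Over the whole group limma called 51 genes lower and 10 higher among the 272 before the border (18.8% and 3.7%), and 44 lower and 18 higher among the 414 after it (10.6% and 4.3%). Among equally bright genes of all chromosomes 10.2% were lower and 8.92% higher, so the share lower after the border was near that background. HCC 4 entered both the choice of the border and these counts, and no test of the difference between the sides is given. Leaving out 1 array at a time gave from 35 (without normal 4) to 60 (without HCC 5) lower before the border, with 37 without HCC 4 and also 37 without normal 3. The shares over all genes with an array left out are not given. Between tumours the genes before the border varied more than after it, with a median SD of 0.45 against 0.36 among the 6 HCC, and 0.38 against 0.36 among the 5 without HCC 4. Among normal livers the median SD was 0.24 and 0.23.

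Before the border, how bright a gene was went with how low it was in HCC 4, and after it the order was reversed. Cut in 3 parts of all members by mean level, the genes before the border had medians of -0.39 in the dimmest part, -0.75 in the middle and -0.85 in the brightest. After the border they were -0.13, -0.04 and 0.07. HCC 6 showed the dimmest part at -0.14 and -0.18, nearer to normal than the others (-0.54 and -0.52 before the border, -0.38 and -0.38 after). Dim probe sets carry more background, and its part was not tested. Cut by CG count, the genes before the border in HCC 4 were at -0.75 (at most 12 CG), -0.72 and -0.52 (more than 19 CG), and those after it at -0.11, -0.01 and 0.09. Both sides were nearer to or above normal at the CG-rich end, and every part before the border lay under every part after it.

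**Figure D4:**
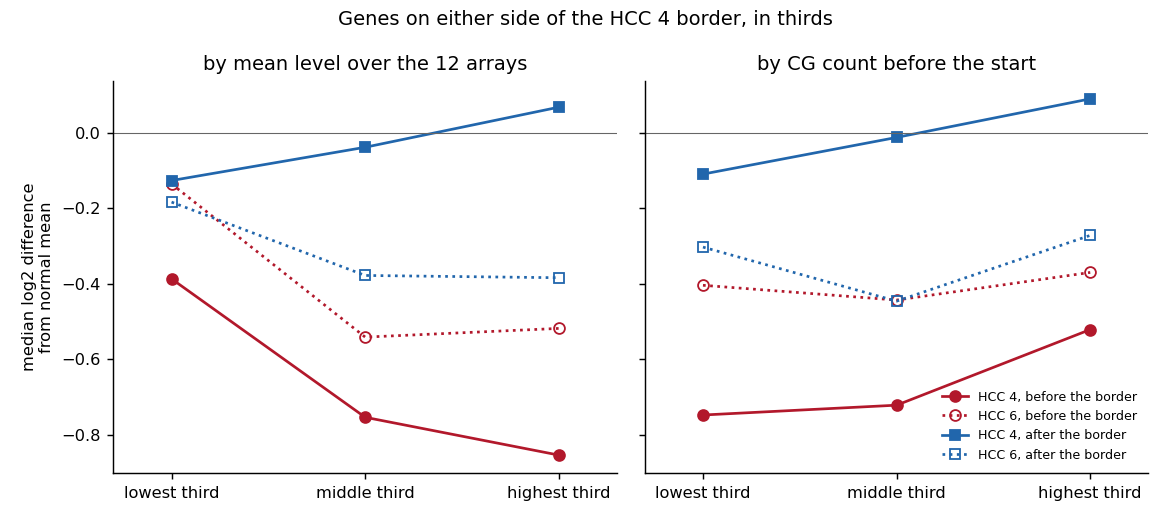
Median log2 difference from the normal mean (y axis) for genes before (red) and after (blue) the HCC 4 border, in HCC 4 (filled) and HCC 6 (open), with members cut into 3 parts by mean level (left) or by the number of CG in 250 bases before the start (right). Every red filled point, from -0.39 to -0.85, lies under every blue filled point, from -0.13 to 0.09.

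Not every gene before the border was low in HCC 4. The highest was Lepr, at 9.79 against 5.99 ± 1.18 in normal liver. It was followed by the acute phase protein Orm2 at 12.93 against 9.75 ± 0.99, Cdkn2b at 8.35 against 6.19 ± 0.89, Jun at 10.77 against 8.70 ± 0.49, and Zfp37 at 7.93 against a normal mean of 6.17. The lowest were Mup10 (a difference of -7.37), Mup3 (-4.86), Cyp2j5 (-4.27), Aldh1b1 (-3.88), Mup5 (-3.53), Baat (-2.97) and Ak4 (-2.92), described below. Of the 10 sugar and cofactor genes there 9 were below normal in HCC 4, with a median of -1.10. Of 9 lipid genes 6 were, with a median of -0.36. Among all 272 genes before the border, a side chosen for being low, 83.1% were below the normal mean, with a median of -0.69.

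The inhibitors of cyclin-dependent kinases rose in HCC. In HCC 4 the running median was -0.58 at Cdkn2b, before the border, and 0.01 at Cdkn2c, after it. Cdkn2b, which encodes p15 (chr4:89306289-89311032), had a lowest, median and highest level of 5.01, 6.51 and 7.01 in normal livers and 8.35, 10.11 and 10.50 in HCC. The groups did not overlap, and the gene rose by 3.73 ± 0.45 (SE, limma adjusted p = 0.000277). HCC 4 had its lowest level among the tumours, at a difference of 2.16 against 3.80 to 4.31 in the others. Cdkn2a, the neighbouring locus of p16 and p19Arf (chr4:89274473-89294619), was too dim to be a member of the set. Its levels ran from 4.72 through 5.20 to 6.38 in normal livers and from 6.54 through 7.07 to 8.34 in HCC, again without overlap (1.94 ± 0.34, adjusted p = 0.00339), and HCC 4 was again the lowest tumour. Cdkn2c, which encodes p18 (chr4:109660876-109666756), lies after the border and was at 7.97, 8.18 and 9.26 in normal livers and at 9.15, 9.79 and 10.30 in HCC, where 5 of 6 tumours lay above all normal livers (1.38 ± 0.26, adjusted p = 0.00495). HCC 4, at 10.09, was second to HCC 5 for this gene.

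Other tumour suppressors and growth regulators moved in both directions. Of 26 genes on this list 3 rose (Cdkn2b, Cdkn2c and Jun) and 4 fell (Kif1b, Ptprd, Id3 and Reck), and the list's median was -0.20. These shares, 11.5% and 15.4%, are near those of equally bright genes (8.92% higher and 10.2% lower) and, for falls, of all chromosome 4 members (13.8%). The transcription factor Jun was at 7.85, 8.89 and 9.18 in normal livers and 9.50, 10.70 and 11.53 in HCC, without overlap (1.92 ± 0.31, adjusted p = 0.00193). The receptor phosphatase Ptprd was at 11.36, 11.58 and 11.98 in normal livers and 8.77, 9.81 and 10.87 in HCC, without overlap (-1.85 ± 0.30, adjusted p = 0.00198). Of its 6 other probe sets 3 bright ones were at -2.01, -1.80 and -1.01, and 3 dim ones at -0.29, 0.07 and 0.31. The Id protein Id3, which blocks basic helix-loop-helix factors, was lower in all 6 HCC than in any normal liver (-1.83 ± 0.31, adjusted p = 0.00275). Reck, a membrane inhibitor of matrix proteases, was below all normal livers in 5 HCC (-1.10 ± 0.26, adjusted p = 0.0155) and overlapped with normal liver in HCC 2, at 8.25. The chromatin remodeller Arid1a differed by 0.14 ± 0.16 (adjusted p = 0.63) and the deacetylase Hdac1 by 0.21 ± 0.14 (adjusted p = 0.378), and neither passed the test.

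**Figure D5:**
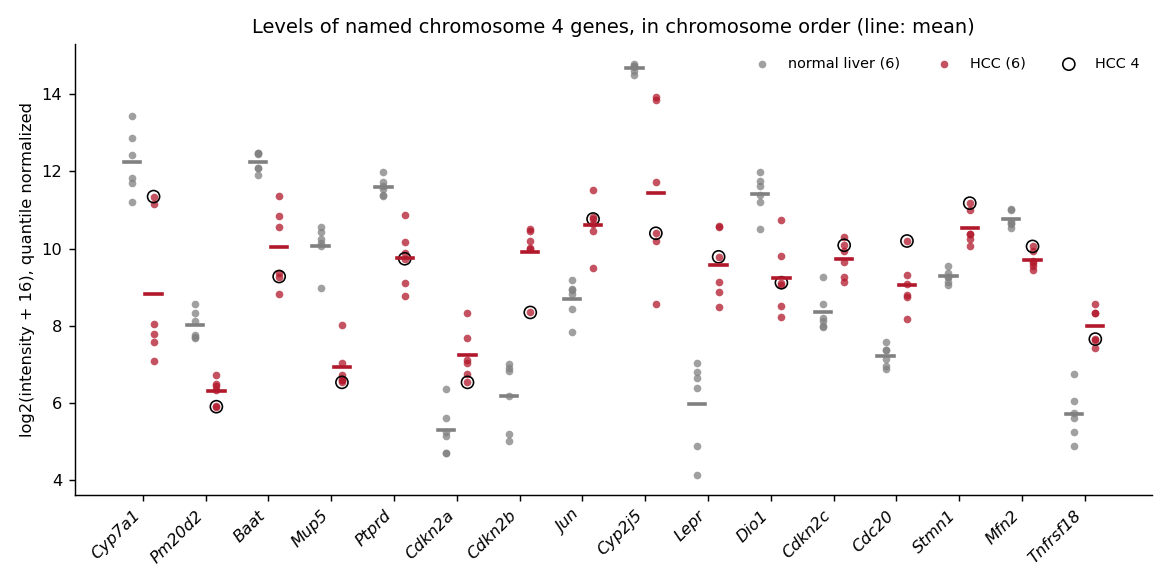
Level (y axis, quantile-normalized log2(intensity + 16)) of 16 named chromosome 4 genes in 6 normal livers (grey) and 6 HCC (red), in chromosome order (x axis); lines are means and circles mark HCC 4. Cdkn2a is below the brightness limit of the set; in Cdkn2a and Cdkn2b all HCC lie above all normal livers with HCC 4 lowest among them.

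Of 19 genes of the cell cycle 4 rose and 0 fell (21.1% and 0%, against 8.92% and 10.2% of equally bright genes), with a median difference of 0.22, and the other 15 did not pass the test. Cdc20, an activator of the anaphase-promoting complex, was at 6.88, 7.26 and 7.59 in normal livers and 8.18, 8.95 and 10.20 in HCC, without overlap (1.84 ± 0.28, limma adjusted p = 0.0014). The highest tumour was HCC 4. The microtubule regulator Stmn1 was at 9.07, 9.27 and 9.56 against 10.07, 10.39 and 11.18, also without overlap and highest in HCC 4 (1.26 ± 0.20, adjusted p = 0.00154). Cdca8, a subunit of the chromosomal passenger complex, rose by 0.78 ± 0.19 (adjusted p = 0.0188). Of the 19 genes 16 lie after the border of HCC 4.

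The major urinary proteins, secreted pheromone carriers made by the hepatocyte, included the largest fall among the members that passed the test, that of Mup10. Of a list of 9 members with the orosomucoids, Ambp and the C8 chains, 3 fell (33.3%) and 0 rose, and all 9 lie before the border. Of equally bright genes of all chromosomes 10.2% fell and 8.92% rose. Mup10 (chr4:60578260-60582276) was at 8.70, 12.26 and 12.70 in normal livers and 4.23, 4.61 and 7.46 in HCC, without overlap (-6.52 ± 0.73, limma adjusted p = 0.000173). Mup5 was at 8.99, 10.20 and 10.55 in normal livers and 6.54, 6.68 and 8.03 in HCC, without overlap (-3.15 ± 0.30, adjusted p = 7.2e-05). Mup3 was at 12.11, 14.83 and 14.95 against 8.28, 9.70 and 14.17, with overlap in HCC 2 and HCC 5 (-3.73 ± 1.02, adjusted p = 0.0297), and it no longer passed when any 1 of 9 arrays was left out (highest adjusted p = 0.0643). Normal 1, without Y-linked signal, was the lowest normal liver for all 3. These genes have near-identical copies that a probe set may not tell apart, and a level of 4 is the floor set by the added 16, so the size of these falls is uncertain. The orosomucoids did not pass. Orm1 was at -0.62 (adjusted p = 0.362), Orm2 at 1.41 (0.315) and Orm3 at -1.58 (0.0958), with Orm2 above all normal livers in HCC 4, 5 and 6.

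Among monooxygenases of fatty acids, 2 of 7 members of the Cyp4 and Cyp2j families fell (28.6%) and 0 rose, and the list's median was -1.41. Of equally bright genes 10.2% fell and 8.92% rose, and 2 of 7 is a small count. The epoxygenase Cyp2j5 (chr4:96627432-96664171) was at 14.49, 14.71 and 14.77 in normal livers and 8.57, 11.06 and 13.92 in HCC, without overlap (-3.22 ± 0.78, adjusted p = 0.0171). HCC 2 and HCC 5 were nearest to normal, at 13.92 and 13.85. Cyp2j9 fell by 1.41 ± 0.31 on the log2 scale, again without overlap (adjusted p = 0.0102). Cyp4a12a, a male-biased hydroxylase, was at 5.95 in normal 1 and 6.82 in normal 3 and between 13.98 and 14.72 in the 4 normal livers with Y-linked signal. All 6 HCC were between 4.79 and 8.47. Over all arrays it did not pass (-4.87 ± 1.56, adjusted p = 0.0567), and over the 8 arrays with Y-linked signal it did (-6.84, adjusted p = 0.000132). Cyp4a14 was at 7.78, 11.19 and 12.86 in normal livers and 6.03, 8.19 and 11.83 in HCC, with overlap in 4 of 6 tumours (-2.28 ± 1.12, adjusted p = 0.202). Its highest values were in the arrays without Y-linked signal, normal 3 and normal 1 among normal livers and HCC 4 and HCC 1 among tumours.

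Genes of lipid, sterol and bile acid metabolism had 6 falls (Cyp7a1, Cpt2, Faah, Acot7, Dio1 and Prkaa2) and 2 rises (Lepr and Leprot) among 19 members, or 31.6% and 10.5%, with a median of 0.04. The shares among equally bright genes of all chromosomes were 10.2% and 8.92%. Cyp7a1, the rate-limiting enzyme of bile acid synthesis (chr4:6265612-6275632), was at 11.22, 12.13 and 13.43 in normal livers and 7.10, 7.91 and 11.35 in HCC (-3.41 ± 0.76, adjusted p = 0.0112). HCC 4, at 11.35, overlapped with normal liver, and HCC 1, at 11.16, lay just under it, while the other 4 HCC lay between 7.10 and 8.05. Cyp7a1 is among the first genes of the chromosome, before the first window that could be centred. Carnitine palmitoyltransferase 2 (Cpt2), which admits fatty acids to mitochondrial oxidation, was at 11.91, 12.15 and 12.45 against 10.02, 10.76 and 11.56, without overlap (-1.33 ± 0.23, adjusted p = 0.00275). The deiodinase Dio1, which activates thyroid hormone, fell by 2.16 ± 0.40 (adjusted p = 0.004) with 5 HCC under all normal livers. Prkaa2 fell by 0.97 ± 0.23 (adjusted p = 0.0155). Baat, which conjugates bile acids but was not on that list, was at 11.90, 12.28 and 12.48 in normal livers and 8.84, 9.97 and 11.36 in HCC, without overlap (-2.20 ± 0.39, adjusted p = 0.00336).

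The leptin receptor gave one of the largest rises. Lepr (chr4:101717137-101815352) was at 4.15, 6.52 and 7.04 in normal livers and 8.50, 9.46 and 10.58 in HCC, without overlap (3.59 ± 0.54, adjusted p = 0.00134). Of its 3 other probe sets 2 were at 3.83 and 2.01 and a dim one at -0.02. Leprot, which shares the start of that locus, rose by 0.66 ± 0.20 (adjusted p = 0.0455), and 5 of 6 HCC lay above all normal livers. HCC 4, at a difference of 0.03, did not.

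Sugar and cofactor genes had 5 falls and 1 rise among 22 members (22.7% and 4.5%, against 10.2% and 8.92% of equally bright genes), with a median of -0.25. Alad, the second enzyme of heme synthesis, was at 13.50, 13.58 and 14.00 in normal livers and 11.58, 12.32 and 13.49 in HCC, without overlap but with HCC 1 just under the lowest normal liver (-1.23 ± 0.26, adjusted p = 0.00917). With the mean of all its probe sets it did not pass (adjusted p = 0.0721). Aco1, the cytosolic aconitase that also senses iron, was at 14.02, 14.11 and 14.26 against 12.58, 13.15 and 13.80, without overlap and lowest in HCC 4 (-0.89 ± 0.20, adjusted p = 0.0118). The fructose transporter Slc2a5 fell by 1.32 ± 0.31 (adjusted p = 0.0137), with HCC 5, at 8.0, among the normal livers. The rise was in Ctps, which makes CTP (0.65 ± 0.17, adjusted p = 0.0247), with 5 HCC above all normal livers and HCC 5, at 8.59, among them.

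Mitochondrial genes had 4 falls and 1 rise among 12 members (33.3% and 8.3%, against 10.2% and 8.92% of equally bright genes), with a median of -0.48. Mitofusin 2 (Mfn2), which joins mitochondria, was at 10.53, 10.69 and 11.02 in normal livers and 9.44, 9.65 and 10.06 in HCC, without overlap (-1.04 ± 0.15, adjusted p = 0.000879). The complex I subunit Ndufb6 fell by 0.82 ± 0.20 on the log2 scale (adjusted p = 0.0182), and in HCC 4, at a difference of -1.59, it was lowest. The assembly factor Ndufaf4 fell by 0.84 ± 0.21 (adjusted p = 0.0196). Atpif1, the inhibitor of ATP synthase, was at 10.04, 10.25 and 10.52 against 10.99, 11.18 and 11.42, without overlap (0.94 ± 0.14, adjusted p = 0.000911). Its dimmer probe sets were at 0.38 and 0.06, and with the mean of all of them it did not pass (adjusted p = 0.101).

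Of 17 immune genes 1 rose and 1 fell (5.9% each, against 8.92% and 10.2% of equally bright genes), counts too small to set the list apart. The receptor Tnfrsf18 (GITR) rose, from 4.90, 5.67 and 6.76 in normal livers to 7.43, 7.99 and 8.57 in HCC, without overlap (2.28 ± 0.31, adjusted p = 0.000633). The chemokine Ccl27a fell, from 8.09, 8.47 and 8.87 to 7.34, 7.56 and 7.75, also without overlap (-0.95 ± 0.15, adjusted p = 0.00166). The median of the immune list was 1.44 in HCC 6 and between -0.38 and 0.77 in the others. Of 14 matrix and vessel genes 2 fell and 0 rose (14.3% and 0%, against 10.2% and 8.92% of equally bright genes). The share that fell was near that of all chromosome 4 members (13.8%). The genes that fell were Reck and the collagen Col27a1 (-2.28 ± 0.53, adjusted p = 0.0145). Col27a1 overlapped with normal liver in HCC 2. Fewer cells of a type and less RNA per cell cannot be told apart in these whole samples.

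Several genes outside the lists had large and separated differences. Pm20d2, a peptidase of the M20 family, was at 7.70, 7.94 and 8.56 in normal livers and 5.91, 6.40 and 6.74 in HCC (-1.72 ± 0.20, adjusted p = 0.000228). The exostosin-like gene Extl1 fell by 1.64 ± 0.24 and agmatinase (Agmat) by 1.68 ± 0.32, with adjusted p-values of 0.000984 and 0.00463. Hdhd3 fell by 1.67 ± 0.29 (adjusted p = 0.00315) and was lowest in HCC 4 at 7.83. Among rises, Fndc10 was at 6.60, 7.16 and 7.33 in normal livers and 8.33, 9.24 and 10.62 in HCC (2.28 ± 0.35, adjusted p = 0.00134). Ttc39a rose by 1.72 ± 0.35, Mllt3, a subunit of the super elongation complex, by 1.42 ± 0.30, and selenoprotein N (Selenon) by 1.28 ± 0.31 (adjusted p = 0.00698, 0.00808 and 0.0181). In these 8 genes all 6 HCC lay on one side of all 6 normal livers.

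Of the genes that were lowest in, or at the edges of, the stretches of single tumours, some passed the test for the group and others did not. They were chosen by their differences in these same arrays. The limma p-values do not allow for that choice and are no support for the stretches. Necab1, a calcium-binding protein, fell by 1.51 ± 0.38 (adjusted p = 0.0208), with -2.45, -2.29 and -2.33 in HCC 1, HCC 4 and HCC 6 but -0.34 in HCC 3. The alpha-tocopherol transfer protein Ttpa and Tstd3 were lowest in the same tumours. Ttpa differed from normal by -2.12 (HCC 1), -2.45 (HCC 4) and -1.83 (HCC 6), and by -0.09 in HCC 5. For Tstd3 the values were -1.96, -2.09, -1.73 and -0.11. Their calls (-1.28 ± 0.37, adjusted p = 0.0387, and -1.12 ± 0.35, adjusted p = 0.0496) did not hold when any 1 of 9 arrays (Ttpa) or 10 arrays (Tstd3) was left out, with adjusted p-values of 0.0826 and 0.102 at most. Hint2, a mitochondrial nucleotide hydrolase, fell by 1.31 ± 0.25 (adjusted p = 0.00545) and was lowest in HCC 6, at 9.29. The glycosidase Myorg fell by 1.25 ± 0.32 (adjusted p = 0.0208), although HCC 1, at 10.49, lay among the normal livers. The lipid hydrolase Pafah2 fell by 0.73 ± 0.18 (adjusted p = 0.0178) and was lowest in HCC 6, at 10.44. Smim27, Enho (the precursor of adropin), C8b, Fam151a, Slc1a7, 9630013D21Rik, Mtfr1l and the lectin pathway protease Masp2 did not pass, with differences from -0.52 to -1.33 and adjusted p-values from 0.0546 to 0.315. A difference is not excluded by that: in Mtfr1l all 6 HCC lay below all 6 normal livers, Enho passed without HCC 5 (adjusted p = 0.0431), and Smim27 with the mean of all probe sets (adjusted p = 0.0394) or without normal 5 (0.0417). Both omitted arrays were those that went most against a fall. HCC 5 was the only tumour with Enho above the normal mean, by 0.60, and normal 5 was the lowest normal liver for Smim27, at 8.03.

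Aldh1b1, a mitochondrial aldehyde dehydrogenase (chr4:45799022-45804608), lay on opposite sides of normal liver in different tumours. Levels of 8.36, 7.63 and 9.88 were found for HCC 1, 4 and 6. The other tumours were higher, HCC 2 with 12.67 and both HCC 3 and HCC 5 with 12.88. Normal livers had 11.24, 11.38 and 12.14 as lowest, median and highest, so each tumour lay outside their range. The group difference was -0.79 ± 0.89 (adjusted p = 0.615). Ak4, chosen after its values were seen, was at 10.99 ± 0.13 in normal liver (SD, n = 6). It differed from that mean by -2.62 in HCC 1 and -2.92 in HCC 4, by 1.01 in both HCC 2 and HCC 3, and by -0.37 and -0.59 in HCC 5 and HCC 6.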

How the data were processed

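RNA of 6 HCC and 6 normal livers was labelled and measured on 12 arrays. Per the labels' protocols, 1 microgram of total RNA was amplified by one-cycle cDNA synthesis and labelled with biotin. The intensity values, as deposited by the authors, were linear signals for 45101 probe sets with a 2% trimmed mean of 500.0 on every array; the method of summary over probes was not given in the sources used here. Columns of no sample numbered 0.

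log2(intensity + 16) was quantile normalized. Control probe sets (64) did not enter. Of the rest 34945 named 1 gene and 932 several, by the platform annotation, and the brightest probe set stood for each of 18193 genes. Positions came from the GRCm38.p6 gene table by gene ID, and 165 genes had no chromosome there. The values of members with several probe sets (421 of 687) are those of the brightest.

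The groups were compared by limma 3.58.1 (lmFit, eBayes, R 4.3.3), two-sided, without a block, with Benjamini-Hochberg adjustment over all genes and a threshold of 0.05. Replicate numbers were not taken as pairs, since correlations of deviations of same-numbered arrays ran from -0.0147 to 0.0778. Running medians, stretches and the border used Python 3.11.15, numpy 2.4.6 and pandas 2.3.3, figures matplotlib 3.10.9, and scripts were tested on simulated data.

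The members, lists and named genes were chosen with earlier results of these data known. Named genes were the 10 largest separated rises and falls that passed the test, up to 3 passing members of each of 9 lists (or the one with the smallest p), the edges and 3 lowest genes of the longer stretches, and Cdkn2a, Cdkn2b, Jun, Cyp7a1, Cdc20, Hdac1 and Arid1a. The limit of 25 windows for a stretch whose genes are named, the border, the genes beside it and the extremes of HCC 4 were chosen after their values were seen. Alternatives were other pseudocounts, filters, scalings, probe set summaries, windows, limits, variance models, weights, a replicate block, Y-linked signal, and leaving out each array.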

Additional observations from a re-analysis of the deposited data

Results flagged for a closer look

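In each group of 6, values whose distance to the nearest other sample was large against the whole range of the group were looked for among 122 sets of values, the levels of named genes and the medians of parts of 20 Mb. Of these 11 were past the limit. Some of the genes were named for being low in a stretch, and the medians use the differences that chose the stretches. The count is therefore a description and is not set against a chance rate.

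In normal 1, Mup5 was low at 8.99 (next 10.08), Mup3 at 12.11 (next 14.33) and Slc1a7 at 6.53 (next 7.16), while Aldh1b1 was high at 12.14 (next 11.56) and Alad at 14.00 (next 13.64). Normal 1 had no Y-linked signal.

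In HCC 5, Mup10 was high at 7.46 (next 5.23) and Mup5 at 8.03 (next 7.04).

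In HCC 4, Cdkn2b was the lowest of the tumours at 8.35 (next 9.99), though above every normal liver, and the median from 80 to 100 Mb was -0.58 (next -0.12).

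In HCC 6, 9630013D21Rik was low at 7.06 (next 8.41), and the median from 140 Mb onwards was -0.46 (next -0.16). That stretch holds 119 genes from Igsf21 to Noc2l.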

How the results depend on the processing

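The count of 29 chromosome 4 genes higher in HCC became 49 with adjustment over genes above the median probe set, 44 with the deposited scaling, 19 with the arrays that had Y-linked signal and 16 at an adjusted p under 0.01. The count of 95 lower became 35 with the arrays that had Y-linked signal and 30 at an adjusted p under 0.01. The first of these settings has fewer arrays and also leaves out HCC 1, HCC 4, normal 1 and normal 3. The part of each in the lower count was not tested. With each array left out the counts higher and lower ran from 22 to 40 and from 68 to 115, and the 51 lower before the border of HCC 4 from 35 to 60. The shares over all genes are not given for these or the other alternative counts, so they are not set against a background. The numbers do not pair the samples; with a replicate block the counts were 22 higher and 65 lower, and 39 of 42 named calls held. Of these 42, 39 held with each array left out in turn and 26 with the arrays that had Y-linked signal. Among genes not called, Aldh1b1 turned from -0.79 to 0.66 in those arrays (adjusted p = 0.568); the cause was not tested, and both values are smaller than the spread between tumours.

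Falling stretches were present in 6 HCC, in 5 or 6 under the other windows, pseudocounts, filters, scalings and references, and in 3 at a limit of -0.5. The lowest running median ranged from -0.89 to -1.22 in HCC 4, from -0.79 to -1.17 in HCC 6 and from -0.15 to -0.45 in HCC 5 over its alternatives. Alternatives for the border were added after the data were seen. Its medians in HCC 4, -0.69 and -0.02, became -0.53 and 0.12 against the other 5 HCC, and with each normal liver left out they ran from -0.69 to -0.71 and from -0.01 to -0.03. Dim probe sets limit what can be said of genes near the floor.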
